A study of Mus musculus with 4 samples.

Results

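A set of 7 very long genes of the mouse nervous system, Dpp10, Lrp1b, Magi2, Auts2, Cacna2d1, Cntnap2 and Ctnna2, were followed through DNA methylation profiles of natural killer T (NKT) cells. They were chosen by name as long neuronal genes that T cells are thought not to use, and every listed window that overlaps their annotated span was taken. This gave 3911 windows of 100 bp out of 1048575 in the deposited table, from 9.94 Mb of gene sequence on chromosomes 1, 2, 5 and 6. The files hold no RNA measurement, so the silence of these genes in NKT cells is background and was not checked, and neither was the identity of the sorted cells.

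The series concerns acetylation of PLZF, a zinc finger transcription factor needed for the NKT lineage, and its effect on how NKT cells differentiate. NKT cells binding CD1 tetramers were sorted from the thymus of PLZFon mice and of wild-type (WT) mice, all of the C57BL/6 strain. MeDIP-seq enriches sheared DNA for fragments that carry 5-methylcytosine by means of an antibody, and reads from these are set against reads from unenriched DNA (input). The 4 groups, PLZFon MeDIP, WT MeDIP, PLZFon input and WT input, had 1 library each, and the labels give neither the PLZFon allele nor the age or number of mice. The antibody label reads none for both PLZFon libraries and names the antibody for both WT libraries, input included, so the groups were taken from the titles. The libraries held 10633609 (PLZFon MeDIP), 15141449 (WT MeDIP), 50374582 (PLZFon input) and 60683037 (WT input) reads. There are no replicates: every difference is between libraries, no p-value was computed, and all 95% intervals are exact and cover counting error only.

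In mammalian cells most DNA methylation sits on the cytosine of CpG dinucleotides, and gene bodies are usually methylated while CpG-rich promoters usually are not. Very long genes used only in neurons tend to lie in gene-poor, AT-rich and late-replicating parts of the chromosome. In several dividing cell types such domains carry less methylation than the rest of the genome. MeDIP recovers DNA in proportion to how many methylated CpGs a fragment holds, so a stretch can give few reads either because it has few CpGs or because these are not methylated.

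The annotated promoters of these genes are shown first because their CpGs and the listed windows around them can be compared directly. Sequences are from RefSeq (GRCm38.p6, the primary assembly of mm10), run 5′ to 3′ from 250 bases before to 50 after the annotated start, and have each CG in capitals. The table held 7 promoters of 5 of the 7 genes, and the 6 below are those with at least 14 CG and the second Cntnap2 promoter.
Dpp10, chr1:124045510-124045809, minus strand: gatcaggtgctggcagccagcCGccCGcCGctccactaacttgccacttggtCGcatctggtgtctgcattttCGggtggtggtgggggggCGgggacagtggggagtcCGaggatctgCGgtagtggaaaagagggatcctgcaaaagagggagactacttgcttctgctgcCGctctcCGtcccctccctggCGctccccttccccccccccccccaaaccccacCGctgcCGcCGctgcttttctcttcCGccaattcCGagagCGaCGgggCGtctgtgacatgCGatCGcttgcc
Cacna2d1, chr5:15934441-15934740, plus strand: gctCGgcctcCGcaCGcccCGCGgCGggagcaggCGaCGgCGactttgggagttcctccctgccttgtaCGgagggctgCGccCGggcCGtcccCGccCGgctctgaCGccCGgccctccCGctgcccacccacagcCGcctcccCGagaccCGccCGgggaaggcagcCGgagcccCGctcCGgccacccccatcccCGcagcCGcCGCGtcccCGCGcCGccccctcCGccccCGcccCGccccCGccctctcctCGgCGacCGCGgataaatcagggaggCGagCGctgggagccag
Magi2, chr5:19226796-19227095, plus strand: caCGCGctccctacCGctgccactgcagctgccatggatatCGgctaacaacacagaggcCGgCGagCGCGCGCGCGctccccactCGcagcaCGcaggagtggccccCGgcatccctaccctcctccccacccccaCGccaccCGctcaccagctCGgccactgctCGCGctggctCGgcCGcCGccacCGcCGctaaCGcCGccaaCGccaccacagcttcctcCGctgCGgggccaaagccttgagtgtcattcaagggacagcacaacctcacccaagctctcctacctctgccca
Cntnap2, chr6:45059811-45060110, plus strand: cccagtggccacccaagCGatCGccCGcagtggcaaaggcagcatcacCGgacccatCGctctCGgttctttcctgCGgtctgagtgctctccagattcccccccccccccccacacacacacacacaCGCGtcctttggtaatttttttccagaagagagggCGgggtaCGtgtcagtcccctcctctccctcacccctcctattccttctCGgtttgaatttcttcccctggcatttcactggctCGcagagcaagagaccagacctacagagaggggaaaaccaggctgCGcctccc
Ctnna2, chr6:77979618-77979917, minus strand: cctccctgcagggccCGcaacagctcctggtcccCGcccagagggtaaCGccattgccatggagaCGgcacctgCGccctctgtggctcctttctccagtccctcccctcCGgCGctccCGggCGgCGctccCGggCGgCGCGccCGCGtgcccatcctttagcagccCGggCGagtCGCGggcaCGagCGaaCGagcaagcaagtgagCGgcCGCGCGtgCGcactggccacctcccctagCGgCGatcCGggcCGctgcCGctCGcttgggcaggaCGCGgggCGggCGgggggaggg
Cntnap2 second promoter, chr6:47244146-47244445, plus strand: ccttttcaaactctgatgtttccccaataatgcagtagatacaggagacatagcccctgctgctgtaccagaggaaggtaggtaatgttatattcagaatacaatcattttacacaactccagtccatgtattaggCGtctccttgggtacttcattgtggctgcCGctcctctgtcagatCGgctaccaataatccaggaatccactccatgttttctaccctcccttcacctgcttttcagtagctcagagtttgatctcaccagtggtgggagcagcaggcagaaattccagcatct

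The first annotated promoters of Dpp10, Cacna2d1, Magi2, Cntnap2 and Ctnna2 were rich in CpG and held no listed window. Lrp1b and Auts2 had no entry. The Dpp10 promoter lies well inside the annotated span of its gene, not at its end, so the start at that end was not examined. Cacna2d1 had 42 CG in its 300 bases, Ctnna2 38, Magi2 29, Dpp10 21 and Cntnap2 14, where the median of 15055 promoters in the range of the table was 7. None of these 5 promoters had a listed window inside it, which is near the background, since 3.19% of the 5400 promoters with at least 14 CG had one. None had a listed window within 1000 bp on either side, as 42.4% of those 5400 promoters did. The nearest listed window lay 3091 bp from the start in Cacna2d1, 3867 bp in Ctnna2, 4746 bp in Magi2, 11359 bp in Dpp10 and 28861 bp in Cntnap2. The second promoters of Magi2 and Cntnap2, inside the genes, had 4 and 3 CG and no listed window either. The second Cntnap2 promoter did have 3 adjacent listed windows within 1000 bp, each with 5 PLZFon and 5 WT MeDIP reads. A window is listed with at least 10 reads over both MeDIP libraries, so a promoter without one was not shown to be free of methylation.

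The first comparison asked how densely listed windows covered these genes, against the rest of the same chromosome. Dpp10, Cntnap2, Ctnna2 and Lrp1b held between about 0.16 and 0.28 times as many listed windows per kb as the rest of their chromosomes. Magi2 and Cacna2d1 held less than 0.5 times as many, and Auts2 slightly more than the rest. Thus 6 of the 7 genes were at least 1.5-fold below the rest of their chromosome and none was that far above it. Over all 1071 protein-coding genes of at least 100 kb in the range of the table, 31.9% were that far below and 32.2% that far above. Most of those genes are shorter than these. Of the 22 genes of 1000 kb or more, which include 6 of the 7, 86.4% were that far below. The median over the 7 genes was 0.281, against 1.05 over the 1071.

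**Figure D1:**
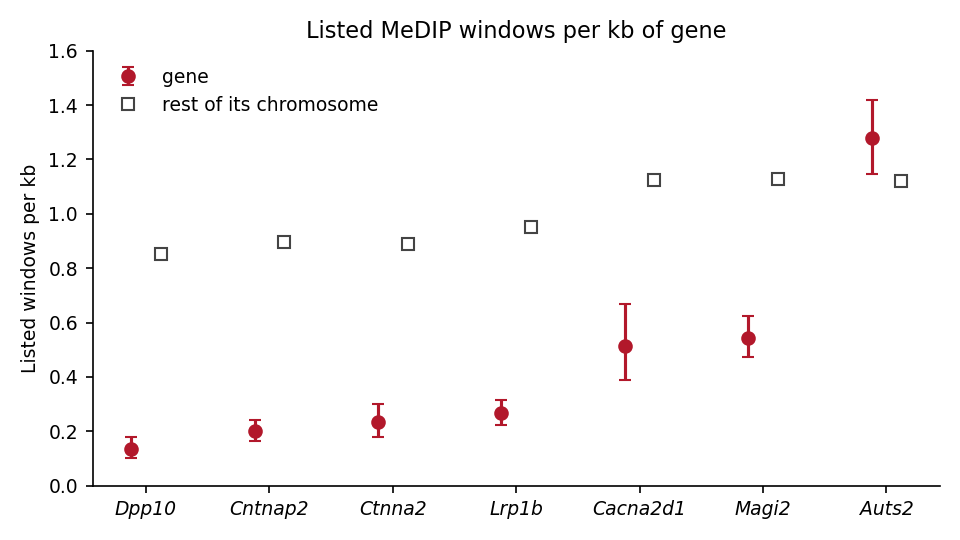
Listed windows per kb (y axis) of the 7 genes, as red points with 95% intervals, and of the rest of the same chromosome, as open squares. Dpp10 was lowest at 0.135 and Auts2, at 1.28, was the gene above its chromosome.

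Dpp10 and Cacna2d1 encode parts of ion channels. Dpp10, an inactive peptidase relative that assists Kv4 potassium channels (chr1:123332138-124845815), had 205 listed windows over 1514 kb. That is 0.135 windows per kb (0.101 to 0.178), against 0.852 on the rest of chromosome 1, a ratio of 0.159. Its windows held raw counts that sum to 1813 in PLZFon MeDIP and 2679 in WT MeDIP, with 2003 in PLZFon input and 2292 in WT input. Each read is counted in about 4 windows, so the sums were divided by 4 for every interval of reads, and window numbers were divided by 4 for every interval of density. Among the 99 genes of at least 500 kb, none had a lower ratio than Dpp10. Cacna2d1, the alpha-2/delta-1 subunit of voltage-gated calcium channels and the shortest of the 7 genes (chr5:15934264-16374511), had 227 windows over 440.2 kb. This made 0.516 per kb (0.390 to 0.668), against 1.12 on the rest of chromosome 5, a ratio of 0.459. Its counts summed to 2464 in PLZFon MeDIP, 3719 in WT MeDIP, 2276 in PLZFon input and 2769 in WT input.

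The adhesion and receptor genes were closer to Dpp10. Cntnap2, whose product Caspr2 is a neurexin relative that gathers potassium channels along axons (chr6:45060061-47301393), had 450 windows over 2241 kb. It stood at 0.201 per kb (0.165 to 0.241), against 0.896 on the rest of chromosome 6, a ratio of 0.224. Its counts summed to 3626 in PLZFon MeDIP, 5656 in WT MeDIP, 4435 in PLZFon input and 5276 in WT input. Ctnna2, the neural alpha-catenin that ties cadherins to actin (chr6:76881637-77979815), had 257 windows, or 0.234 per kb (0.180 to 0.299), against 0.890 on the rest, a ratio of 0.263. Its counts summed to 1838 in PLZFon MeDIP, 2391 in WT MeDIP, 2172 in PLZFon input and 2689 in WT input. When only windows with at least 20 MeDIP reads were counted, the ratio of Ctnna2 was 0.131. Ctnna2 encloses Lrrtm1, a synaptic adhesion gene of its own, and 4 of the 257 windows overlap it. Lrp1b, a giant endocytic receptor of the LDL receptor family (chr2:40595290-42653598), had 551 windows, or 0.268 per kb (0.225 to 0.316), against 0.953 on the rest of chromosome 2, a ratio of 0.281. Its counts summed to 5860 in PLZFon MeDIP, 8720 in WT MeDIP, 5790 in PLZFon input and 6957 in WT input.

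The scaffold gene Magi2 and the nuclear gene Auts2 held more windows. Magi2, which encodes a synaptic scaffold protein (chr5:19219387-20704792), had 808 windows, or 0.544 per kb (0.472 to 0.624), against 1.13 on the rest of chromosome 5, a ratio of 0.482. Its counts summed to 7070 in PLZFon MeDIP, 9910 in WT MeDIP, 6898 in PLZFon input and 8731 in WT input. Auts2, which encodes a partner of Polycomb complexes in neuronal development (chr5:131437333-132543220), had 1413 windows, or 1.28 per kb (1.15 to 1.42), against 1.12, a ratio of 1.14. Its counts summed to 10868 in PLZFon MeDIP, 16307 in WT MeDIP, 11787 in PLZFon input and 14306 in WT input. With a minimum of 20 MeDIP reads Auts2 stood on the other side of its chromosome, at 0.966.

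In order of density the genes ran Dpp10, Cntnap2, Ctnna2, Lrp1b, Cacna2d1, Magi2 and Auts2. The intervals of neighbours in this order overlapped, except between Lrp1b and Cacna2d1 and between Magi2 and Auts2. They treat the divided window numbers as independent counts, but listed windows were clustered along the genes. In Lrp1b, stretches of 100 kb ran from 0.01 to 0.91 windows per kb. This unevenness is not in the intervals, so those that did not overlap do not show that the genes differ. In the order given, the genes of chromosome 5 were the 3 densest of the 7, and they ranged from a ratio of 0.459 to 1.14 on the same chromosome.

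Outside Auts2, which had no shortfall over all its windows, both CpG-poor and CpG-rich windows were listed less densely than on the rest of the chromosome. The CpG factor, the authors' score of the CpG content of a window, runs from 1 upward, and windows of 7 or more were taken as 1 class. Over the 7 genes together, windows of factor 1 stood at 0.139 per kb against 0.320 on the rest of the 4 chromosomes, a ratio of 0.434. The ratio was 0.411 at factor 2, 0.395 at factor 3, 0.384 at factor 4, 0.387 at factor 5, 0.419 at factor 6 and 0.494 at factor 7 or more. Auts2 supplied 1413 of the 3911 windows behind these values. In the other 6 genes the ratio ranged from 0.121, in Dpp10 at factor 2, to 0.803, in Lrp1b at factor 7 or more. Lrp1b had 0.281 at factor 1, against that 0.803 on 23 windows. Lower ratios at the CpG-rich end were seen in Auts2, with 1.18 at factor 1 and 0.601 at factor 7 or more on 12 windows. Ctnna2 had 0.312 and 0.183 in the same classes, on 3 windows in the second, and Magi2 had 0.533 at factor 1 and 0.216 at factor 6, on 7 windows. How many windows of each factor the genes hold in all, listed or not, is not in the table. The number of CpGs, their methylation and the share of sequence to which reads map uniquely can therefore not be told apart in these densities.

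The listing was also low over most genes of this length. The median ratio was 1.18 for 647 genes of 100 to 200 kb, 0.949 for 325 genes of 200 to 500 kb, 0.516 for 77 genes of 500 to 1000 kb and 0.283 for 22 genes of 1000 kb or more. In the last class, which holds 6 of the 7 genes, 86.4% were at least 1.5-fold below their chromosome. Ptprd (0.178), Kcnip4 (0.197), Lrrc4c (0.198) and Lingo2 (0.209) lay between Dpp10 and Cntnap2, and Dab1 (0.785) was the other gene of this class beside Auts2 above 0.7. These genes were named after their values were seen, and gene length and neuronal use were not separated.

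Of 40 other long neuronal genes, such as adhesion, channel and glutamate receptor genes, 33 were at least 1.5-fold below their chromosome and 4 at least 1.5-fold above. Their median was 0.338, the lowest was the axon guidance gene Sema3a (0.165), and the highest was the adhesion receptor gene Adgrl2 (3.36). Of 30 genes listed as long genes of T cells, 28 had at least 100 kb, and 9 of these were below and 12 above by the same size. Their median was 1.34, the highest was Nfkb1 (3.02), a subunit gene of NF-kappaB, and the lowest was Ptprc (0.105), which encodes the leukocyte surface phosphatase CD45. Ptprc, a gene that T cells use heavily, thus had a lower ratio than each of the 7 neuronal genes, but on 10 listed windows over 113 kb. No interval was computed for Ptprc, so its place in this order is uncertain. Both lists were compared by counts and medians alone, with no test between them and without matching gene length. Membership of both lists is background knowledge, and use of these genes in NKT cells was not measured. In the T cell list only Rabgap1l (0.366), Lrba (0.550), Arhgap15 (0.876) and Foxp1 (2.40) had at least 500 kb.

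**Figure D2:**
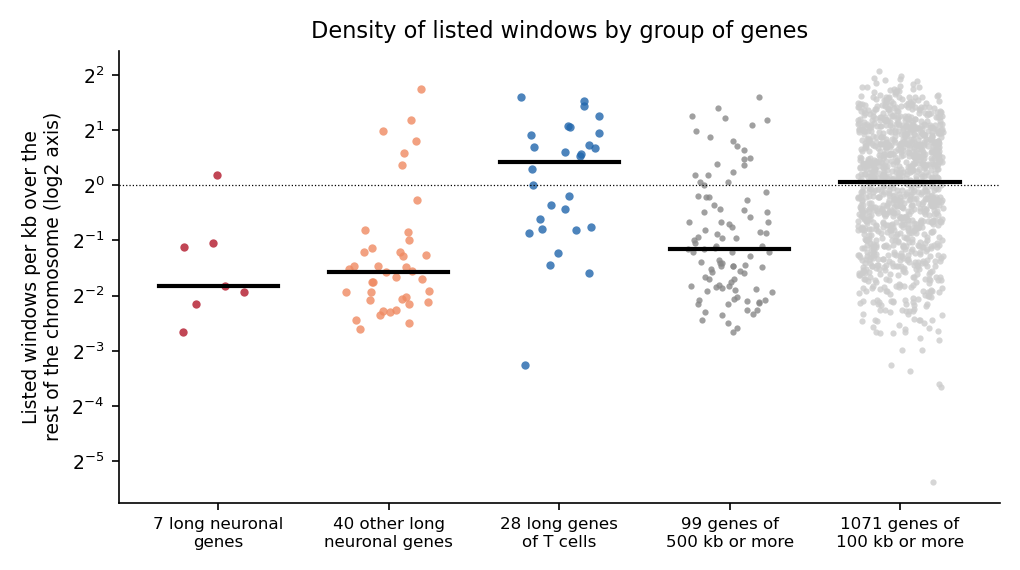
Listed windows per kb over the rest of the chromosome (log2 y axis) for single genes (points) and group medians (bars), with genes of the first 3 groups also present in the last 2 where long enough. The 7 genes had a median of 0.281, the 28 T cell genes 1.34 and all 1071 genes 1.05. Gene length was not matched between the groups.

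The next comparison asked how the listed windows were arranged along each gene, in bins of 100 kb from the lower-coordinate end, of which the last is shorter. All 16 bins of Dpp10, all 23 of Cntnap2, all 11 of Ctnna2 and all 5 of Cacna2d1 lay below the median bin of their chromosome, as did 20 of 21 in Lrp1b, 12 of 15 in Magi2 and 5 of 12 in Auts2. The median bin held 0.1 windows per kb in Dpp10, against 0.67 over 1907 other bins of chromosome 1. It held 0.17 in Cntnap2 and 0.2 in Ctnna2, against 0.73 over 1430 other bins of chromosome 6. In Lrp1b it held 0.24, against 0.79 over 1767 bins of chromosome 2. Cacna2d1 (0.49), Magi2 (0.39) and Auts2 (1.14) were set against 0.96 over 1455 bins of chromosome 5. Of the 103 bins of the 7 genes 4 held no listed window (3.88%), against 11 of 6559 other bins (0.168%), and 2 of the 4 were short end bins of 13.7 kb in Dpp10 and 5.89 kb in Auts2.

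Within genes the windows were uneven. Cntnap2 had no listed window in its first 110.8 kb, which begin at the annotated start shown above. In Dpp10 a stretch of 108.8 kb was empty (chr1:124228001-124336800). The longest empty stretch was 70.1 kb in Lrp1b, 64.8 kb in Ctnna2, 51.7 kb in Magi2, 36.9 kb in Cacna2d1 and 13.7 kb in Auts2. Lrp1b had a single bin near the level of its chromosome, at 0.91 windows per kb (chr2:41195290-41295289), and its next highest had 0.65.

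Magi2 was sparse over the part that follows its first annotated start and denser farther on. Its first 7 bins, which cover the sequence up to its second annotated start, ranged from 0.18 to 0.34 windows per kb, and its last 8 from 0.39 to 1.58. Counted from the lower-coordinate end and without regard to strand, Auts2 had 2.07 windows per kb in each of its first 2 bins and 0.77 in its last full bin. In Cntnap2 the highest bin had 0.6 windows per kb and in Ctnna2 0.42, so no bin of either reached the median bin of chromosome 6.

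**Figure D3:**
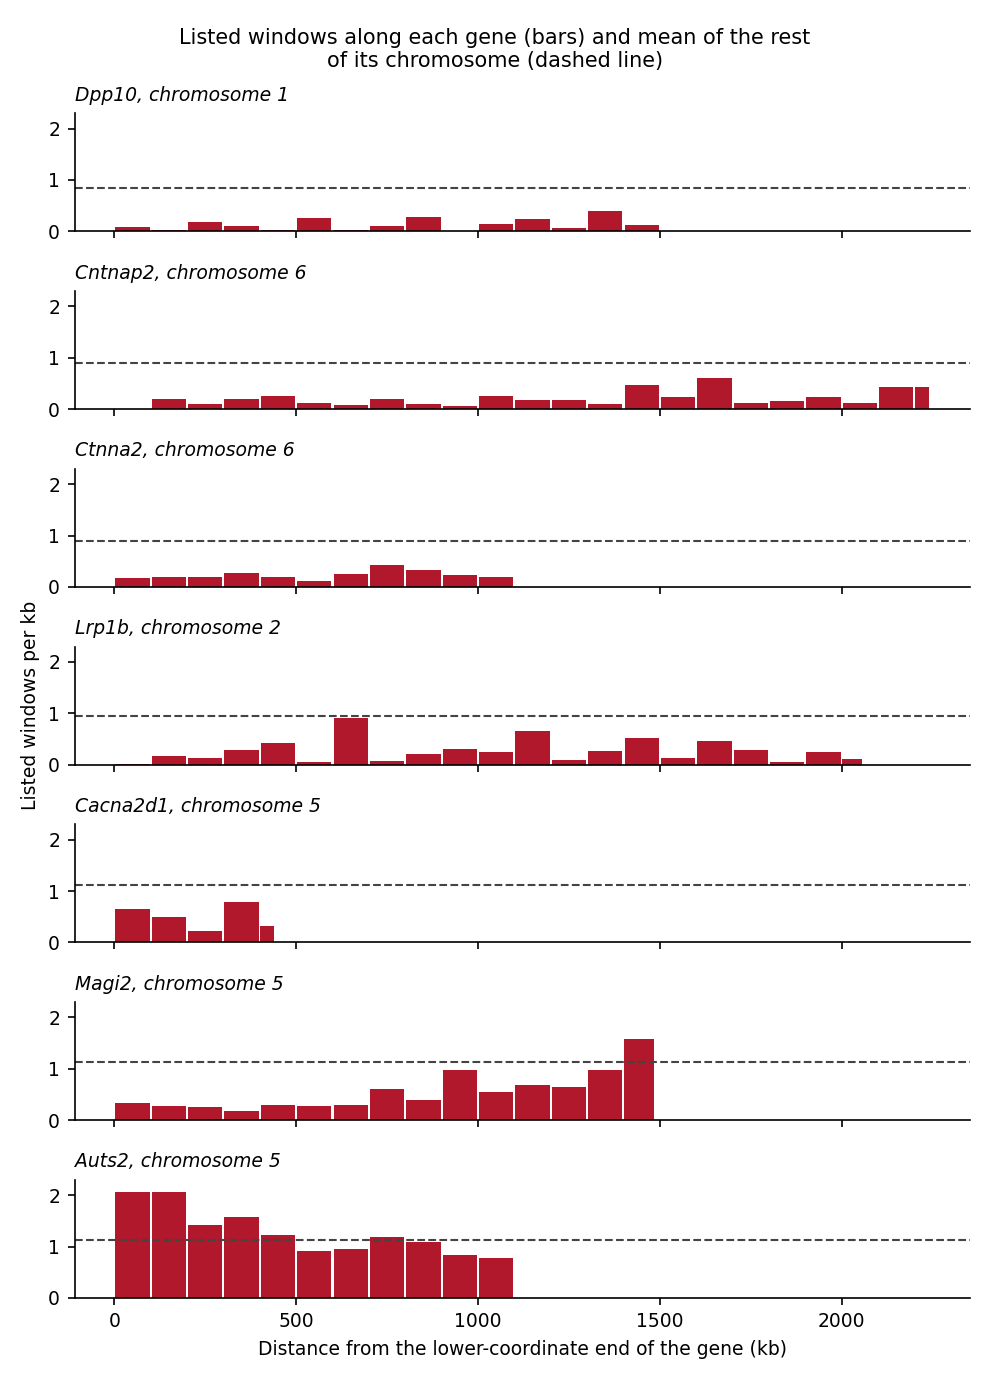
Listed windows per kb (y axis) in bins of 100 kb along each gene (x axis, kb from the lower-coordinate end), with the mean of the rest of the chromosome as a dashed line. Bars of Dpp10, Cntnap2, Ctnna2, Lrp1b and Cacna2d1 stay below the line, Magi2 crosses it in its last bin, and Auts2 starts above it at 2.07.

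The sequence beside the genes differed from gene to gene. In the 500 kb below Dpp10, where no other protein-coding gene ends, the density was 0.0963 times that of chromosome 1. In the 500 kb above Dpp10, where no protein-coding gene starts, it was 0.721 times. The flanks of Lrp1b, without protein-coding genes ending or starting in them, were at 0.413 and 0.174. Ctnna2 had 0.323 below it, where no protein-coding gene ends, and 0.348 above it, where 6 start. Cntnap2 had 0.248 below it, where no protein-coding gene ends, and 1.79 above it, where 9 protein-coding genes start. Magi2 had 0.279 below, where no protein-coding gene ends, and 1.05 above, where 6 start. Cacna2d1 had 0.751 below, where 5 end, and 0.443 above, where 2 start. Auts2 had 0.839 below, where 1 ends, and 0.627 above, where no protein-coding gene starts, both lower than Auts2 itself. The flanks were looked at after the densities of the genes were known.

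The third comparison asked how strongly the windows that were listed had been pulled down, as depth-scaled MeDIP reads over depth-scaled input reads, against the rest of the chromosome weighted to the same CpG factors. Where windows were listed, pull-down of the 7 genes ran from 0.892 to 1.19 times that of the rest of their chromosomes in PLZFon and from 0.811 to 1.196 times in WT. The median of the 7 genes was 1.04 times the rest in PLZFon and 1.03 times in WT, against 1.01 and 1.01 over 1425 genes with at least 100 listed windows. By the size of 1.2-fold with an interval excluding equality, no gene was lower or higher in PLZFon cells, where 9.89% of the 1425 genes were lower and 9.19% higher. In WT cells Ctnna2 was lower, 1 of 7, where 8.63% of the genes were lower and 8.84% higher. Because a window needed 10 MeDIP reads to be listed, weakly methylated windows are missing from both sides of this comparison.

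Ctnna2 had MeDIP over input of 4.01 in PLZFon (3.53 to 4.55) and 3.56 in WT (3.19 to 3.98). The rest of chromosome 6 at equal CpG factor had 4.19 in PLZFon and 4.40 in WT. Ctnna2 was thus at 0.956 times the rest in PLZFon (0.843 to 1.08) and at 0.811 times in WT (0.725 to 0.906). All 6 of its bins with at least 20 windows were below the rest, between 0.806 and 0.992 in PLZFon and between 0.639 and 0.916 in WT. Its bins with fewer windows lay on both sides. Bin 1 stood at 1.08 in PLZFon and 1.09 in WT, bin 3 at 1.03 and 0.791, and bin 5 at 0.714 and 0.682. Bin 6 stood at 1.46 and 1.01, and bin 11 at 0.926 and 1.04. The windows of Ctnna2 also held fewer reads than those elsewhere: 19.5% had at least 20 MeDIP reads, against 39.0% on the rest of chromosome 6. With windows of at least 20 MeDIP reads alone the WT value was 0.814, but with fewer than 100 windows left it no longer met the rule. Whether PLZFon and WT differ in this value was not tested.

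Cacna2d1 lay at the other end, just inside the 1.2-fold size. Its MeDIP over input was 5.13 in PLZFon (4.57 to 5.76) and 5.38 in WT (4.87 to 5.95), which is 1.19 times (1.06 to 1.34) and 1.196 times (1.08 to 1.32) the rest of chromosome 5. Bin 4 from its lower-coordinate end carried the most, at 1.42 in PLZFon and 1.56 in WT, with 78 of the 227 windows. Lrp1b stood at 1.097 in PLZFon (1.02 to 1.18) and 1.09 in WT (1.03 to 1.17). Magi2 stood at 1.15 in PLZFon (1.08 to 1.23) and 1.03 in WT (0.969 to 1.09).

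Cntnap2 had 0.892 in PLZFon (0.816 to 0.974), the lowest PLZFon value of the 7, and 0.954 in WT (0.885 to 1.03). Auts2 had 1.04 in PLZFon (0.988 to 1.098) and 1.03 in WT (0.989 to 1.08). Dpp10 had 0.998 in PLZFon (0.877 to 1.14) and 1.05 in WT (0.935 to 1.17), although it held the fewest windows per kb. With windows of at least 20 MeDIP reads alone, Dpp10 stood at 1.24, Cacna2d1 at 1.24 and Cntnap2 at 1.04 in WT, and Ctnna2 at 1.03 in PLZFon. Cntnap2 and Ctnna2 were then on the other side of the rest. Dpp10, Cacna2d1 and Ctnna2 had 70, 80 and 50 such windows, under the 100 that the rule asks for.

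**Figure D4:**
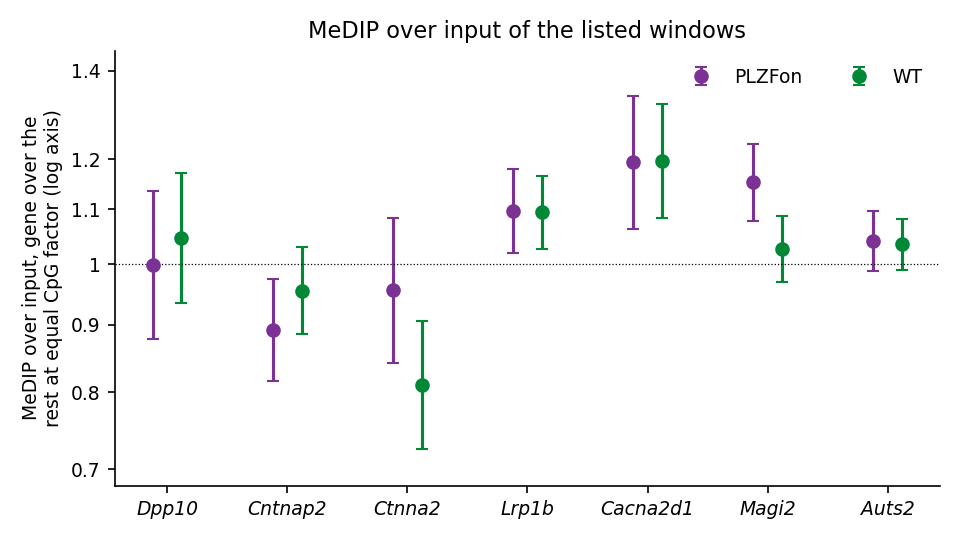
MeDIP over input of the listed windows of each gene over the rest of its chromosome at equal CpG factor (log y axis), in PLZFon (purple) and WT (green), with 95% intervals of counting error. Ctnna2 in WT is lowest at 0.811, and Cacna2d1 is highest at 1.19 in PLZFon and 1.196 in WT.

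MeDIP over input was higher at factor 7 or more than at factor 1, in the 7 genes and on the rest of the 4 chromosomes. At factor 1 the genes had 3.68 in PLZFon and 3.67 in WT, against 3.58 and 3.70 on the rest. At factor 4 they had 5.76 and 6.32, against 5.17 and 5.50 on the rest. At factor 6 the genes had 5.88 in PLZFon, less than their 6.20 at factor 5 and less than the 6.13 of the rest at factor 6, and 6.99 in WT, against 6.75 on the rest. At factor 7 or more they had 6.94 and 8.35, against 6.62 and 7.30 on the rest.

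Among the other long neuronal genes with at least 100 listed windows, 37 of 40, 2 were lower and 7 higher in PLZFon, and 4 were lower and 4 higher in WT. The glutamate receptor gene Grm7 was the lowest of them in both, at 0.735 in PLZFon and 0.650 in WT. Luzp2 was the highest in PLZFon (1.29) and Cntnap5a, a relative of Cntnap2, in WT (1.32). The medians of this list were 1.07 in PLZFon and 1.04 in WT. Of the T cell list, 25 of 30 genes had enough windows, with 1 lower (Lef1, 0.652) and 1 higher (Ppp3ca, 1.21) in PLZFon. In WT none of them was lower or higher, with a range from 0.906 (Runx1t1) to 1.14 (Skap2), and medians of 1.01 in PLZFon and 1.03 in WT.

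The strongest window of each gene shows what a well-covered methylated site looked like in these libraries. In Cacna2d1 it had a CpG factor of 10 (chr5:16291601-16291700) and held 73 reads in PLZFon MeDIP and 121 in WT MeDIP, with 17 in PLZFon input and 15 in WT input. In Lrp1b (chr2:41744601-41744700, factor 4) it held 70 PLZFon and 91 WT MeDIP reads, with 17 and 22 input reads. In Magi2 (chr5:20190701-20190800, factor 5) it held 58 PLZFon and 101 WT MeDIP reads, with 24 and 22 input reads. The Cacna2d1 window stood at 20.3 times the input in PLZFon and 32.3 times in WT, where the whole gene had 5.13 and 5.38. Each of these windows was picked for its MeDIP reads, so a value above that of its gene follows from the choice.

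In Cntnap2 the strongest window (chr6:46685301-46685400, factor 7) held 44 PLZFon and 93 WT MeDIP reads, with 11 and 12 input reads. In Dpp10 (chr1:124642301-124642400, factor 4) it held 37 PLZFon and 65 WT MeDIP reads, with 17 and 11 input reads. In Auts2 (chr5:132180001-132180100, factor 3) it held 47 and 50, with 17 and 17 input reads, and in Ctnna2 (chr6:77705401-77705500, factor 2) 41 and 55, with 13 and 24. Scaled to depth, the PLZFon over WT ratio of these windows ran from 0.674 in Cntnap2 (0.460 to 0.974) to 1.34 in Auts2 (0.879 to 2.03).

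The fourth comparison, PLZFon against WT MeDIP, is the genotype contrast of the series. Each of the 7 genes had depth-scaled MeDIP reads in PLZFon cells within 1.2-fold of those in WT cells. Together they stood at a PLZFon over WT ratio of 0.967 (0.941 to 0.994), where the rest of the 4 chromosomes stood at 0.965, and their inputs were at 0.990 (0.963 to 1.02). None of the 7 was at least 1.2-fold lower or higher with an interval excluding equality. Over 7370 protein-coding genes with at least 20 reads, 3.46% were lower and 1.04% higher by that rule. The median of the 7 genes was 0.957, and that of the 7370 genes was 0.958.

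Cntnap2 had the lowest ratio, 0.913 (0.839 to 0.993), and 1.01 (0.934 to 1.098) in the inputs. Auts2 followed at 0.949 (0.904 to 0.996), and had 0.993 (0.945 to 1.04) in the inputs. These intervals end just below equality, and both contain the ratio of the rest of their chromosomes, 0.976 for chromosome 6 and 0.960 for chromosome 5. Ctnna2 had the highest ratio, 1.09 (0.967 to 1.24), and 0.973 (0.867 to 1.09) in the inputs.

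Magi2 stood at 1.02 (0.955 to 1.08), Dpp10 at 0.964 (0.853 to 1.09), Lrp1b at 0.957 (0.895 to 1.02) and Cacna2d1 at 0.943 (0.851 to 1.05). The input ratios of these 4 genes ranged from 0.952 in Magi2 to 1.05 in Dpp10. None of the 40 other long neuronal genes passed in either direction, with a median of 0.989 and a range from 0.878 (Khdrbs2) to 1.17 (Grm7). Of the 30 T cell genes 1 was lower (Lef1, 0.567) and 1 higher (Ikzf2, 1.201, 1.02 to 1.42), with a median of 0.990. The highest ratio of that list was in Stat4, 1.28, with an interval that includes equality (0.976 to 1.68).

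**Figure D5:**
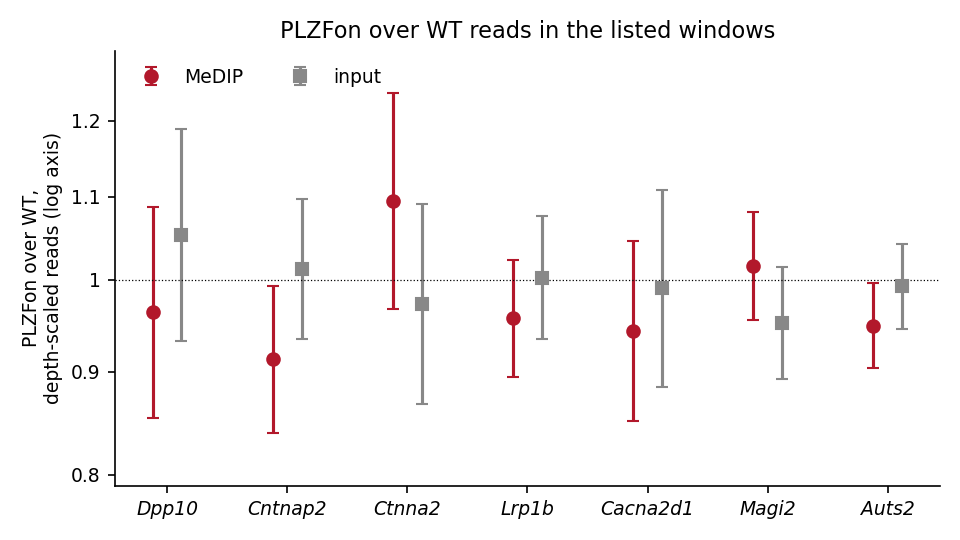
PLZFon over WT ratio of depth-scaled reads in the listed windows of each gene (log y axis), for MeDIP (red circles) and input (grey squares), with 95% intervals of counting error. All MeDIP ratios lie between 0.913 in Cntnap2 and 1.09 in Ctnna2.

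Along the genes, 93 of the 103 bins had at least 20 MeDIP reads. In 1 of these the interval of the PLZFon over WT ratio lay wholly below equality, and in none above, where 5.14% and 1.23% of all 6578 such bins of the 4 chromosomes did. That bin is number 4 of Cntnap2 (chr6:45360061-45460060), at 0.553 (0.335 to 0.888), with an input ratio of 0.845 and 20 listed windows. The bins of Auts2 ranged from 0.865 to 1.102 and those of Ctnna2 from 0.823 to 1.27. Across the 103 bins the depth-scaled MeDIP reads per kb of PLZFon and WT had a Pearson correlation of 0.996, a description only, since both depend on the same listed windows and CpG content.

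Single windows were compared by a rule of at least 20 MeDIP reads, 2-fold and an interval excluding equality. Of 1332 such windows in the 7 genes, 7 were higher (0.526%) and 31 lower (2.33%) in PLZFon, at 5 and 20 separate sites, since neighbouring windows share reads. Among all 409114 windows with at least 20 MeDIP reads, 1.13% were higher and 2.17% lower. With TMM scaling the numbers were 14 higher and 28 lower. The shares over all windows above are without TMM scaling, so they are no background for these 2 numbers. The inputs of the same genes, compared by the same rule, gave 26 higher and 34 lower among 1727 windows, where 1.92% and 1.43% of all windows did so. The lower windows were 3 of 50 in Ctnna2 (6%, at 1 site), 7 of 143 in Cntnap2 (4.90%), 14 of 477 in Auts2 (2.94%), 5 of 232 in Lrp1b (2.16%) and 2 of 280 in Magi2 (0.714%). Dpp10 and Cacna2d1, with 70 and 80 windows that could be compared, held none in either direction. The authors' deposited p-values for single windows come from 1 MeDIP library per genotype and are not read as a result about these genes.

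The 3 highest and 3 lowest ratios are named from the windows that passed the rule. Passing it already required 2-fold and an interval excluding equality, so ratios and intervals beyond equality follow from the choice. The highest ratios were in Cntnap2 and Auts2. A Cntnap2 window (chr6:45467701-45467800) held 15 PLZFon and 5 WT MeDIP reads, with 7 and 7 in the inputs, and its MeDIP ratio was 4.27 (1.48 to 15). In Auts2 (chr5:131440301-131440400) there were 14 PLZFon and 6 WT MeDIP reads, a ratio of 3.32 (1.199 to 10.5). A second Cntnap2 window (chr6:46011701-46011800) held 14 and 7, a ratio of 2.85 (1.08 to 8.34).

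The lowest ratio among windows that passed the rule was also in Auts2 (chr5:131581101-131581200). This window held 2 PLZFon and 19 WT MeDIP reads, against 9 and 8 in the inputs, and its MeDIP ratio was 0.150 (0.0169 to 0.621). Windows in Lrp1b (chr2:41256401-41256500) and elsewhere in Auts2 (chr5:131650601-131650700) each held 3 PLZFon and 18 WT MeDIP reads, a ratio of 0.237 (0.0448 to 0.813). Auts2, the gene with the most listed windows, thus held windows at both ends of the range, while its ratio over the whole gene was 0.949.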

How the data were processed

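MeDIP and input libraries of sorted thymic NKT cells were compared, 1 per group. BWA, edgeR and the mm10 build are named in the submitters' processing notes without versions, and sorted, unique-filtered alignments per the file headers. The deposited table gives raw counts per window of 100 bp, RPKM values by the authors and a CpG factor, a score of CpG content from the authors. It also holds the authors' edgeR log2 fold changes and p-values. Checked on the table, no window had under 10 MeDIP reads (PLZFon and WT summed) or a CpG factor under 1. The table ends on chromosome 7, and later regions were not analysed here.

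Scaling used the library sizes that counts over RPKM give. For the input libraries, the scaled squared difference of neighbouring windows stopped rising steeply at a distance of 4 windows (PLZFon 1.17, WT 1.19), so sums were divided by 4 for exact (Clopper-Pearson, and Poisson for window numbers) 95% intervals. This is less certain for MeDIP, where it went on rising. The intervals cover counting error only, since PCR copies are not independent molecules. Those of density also leave out the clustering of listed windows along a gene. Gene spans came from RefSeq (GRCm38.p6), and all 7 members and all symbols of the lists of 40 and 30 genes matched. The rest of a chromosome is its listed span without the gene. Exons and introns were not separated.

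With 1 library per group there was no test and no p-value. All 7 members were named, beside the highest and lowest gene of each list and measure, the strongest window of each member under 60 input reads and the 3 highest and 3 lowest windows. Other genes were named after their values were seen. The members and lists were chosen with earlier results of these data known. The intervals and the 1.2-fold rule were run on simulated counts of known ratio. Reads were drawn independently there, so this cannot test the division by 4 or the effect of PCR copies. Python 3.11.15, scipy 1.17.1 and edgeR 4.0.16 (TMM factors) were used. Alternatives were other read and CpG factor minimums, TMM and other scalings, another reference and windows of ordinary input.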

Additional observations from a re-analysis of the deposited data

Results flagged for a closer look

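Dpp10 was the gene whose MeDIP over input lay on opposite sides of the rest of its chromosome in the 2 genotypes, at 0.998 in PLZFon (0.877 to 1.14) and 1.05 in WT (0.935 to 1.17). Both intervals include equality, and the difference between the genotypes was not tested. Without weighting by CpG factor Dpp10 stood at 1.03 in PLZFon and 1.07 in WT, on the same side. With windows of at least 20 MeDIP reads alone it stood at 0.941 in PLZFon and 1.24 in WT. Cntnap2 (0.964 in PLZFon, 1.04 in WT) and Ctnna2 (1.03 and 0.814) were then on opposite sides as well.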

How the results depend on the processing

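The count of 6 genes at least 1.5-fold below their chromosome in listed windows was the same under 4 alternatives and under 1 chosen after seeing the data, which left out windows of 60 or more input reads. Without weighting by CpG factor 1 gene, Cacna2d1 (1.21), was higher in PLZFon MeDIP over input. With at least 20 MeDIP reads 0 genes were lower in WT MeDIP over input, since Ctnna2 then had fewer than 100 windows. Single windows passing the rule came to 4 higher and 13 lower with at least 30 MeDIP reads, as fewer windows could be tested, and to 14 higher with TMM factors. No share over all windows was set beside these counts. Most of the other counts of genes were 0 as reported and 0 under the alternative, which says nothing of stability, and under the minimum of 20 reads Dpp10, Cacna2d1 and Ctnna2 could not be called. TMM factors divided every PLZFon over WT ratio by 0.965 and scaling by the listed windows by 0.964, and with TMM the median of the 7 genes was 0.992. The density ratio of Magi2 was 0.594 and that of Auts2 1.396 against sequence outside protein-coding genes. No paired analysis was possible because each group has 1 library, and no library could be left out for the same reason. The share of all windows of equal CpG number that is listed was not run, as it needs a genome. Depth limits the genotype ratio most in Ctnna2 and Dpp10, which had the fewest reads.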
